A study of Homo sapiens with 8 samples.

Results

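Poly(A) 3′-sequencing peaks were examined at 7 genes of the LIN28B, IGF2BP and let-7 axis: LIN28B, IGF2BP1, IGF2BP2, IGF2BP3, HMGA1, HMGA2 and DICER1. A peak was taken when it overlapped the GENCODE span of one of these genes or the 4 kb after its 3′ end. This gave 112 of the 153624 peaks in the deposited list. Of these, 106 were retained and 6, all in introns of IGF2BP3, were removed as probable internal priming (25 A with no more than 3 mismatches just after the peak, and no polyadenylation signal before it). The 106 retained peaks lay at an annotated transcript end in 12 cases, in other exonic sequence in 22, in introns in 70 and after the gene in 2.

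The libraries came from a human neuroblastoma cell line with MYCN amplification, Kelly, and from Kelly E9R, a single derived line in which a mutation of the CDK12 cysteine that THZ531 binds arose during drug exposure. According to the labels, each line received 400 nM THZ531, which covalently inhibits CDK12 and CDK13, kinases of the RNA polymerase II tail, or the solvent DMSO for 6 h, in duplicate. This makes 4 groups of 2 libraries. The study's methods name a lower dose for these lines, and the labels were followed here. The authors merged all 8 libraries before calling peaks. The list therefore holds no value per sample, treated and untreated cells cannot be told apart in it, and every value below describes the pool, with no replicate and an unknown depth per library.

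The labelled cell type was checked against its markers in the same list. All 13 adrenergic neuroblastoma markers, TH and MYCN among them, had a retained peak at an annotated end, with pileups of 29 to 121 at the strongest. Of 5 mesenchymal markers 4 had one, with pileups of 5 to 21, and YAP1 had no peak. Among all protein-coding genes with an intron, 66.8% had such a peak. The adrenergic and mesenchymal markers thus differed mainly in pileup, which is not an expression level. The leukocyte gene PTPRC, the hepatocyte gene ALB and the endothelial gene PECAM1 had no peak, and the epithelial gene EPCAM had a single site with a pileup of 6.

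LIN28B is an RNA-binding protein that blocks the maturation of let-7, a microRNA family that represses growth genes in differentiated cells. let-7 in turn pairs with the 3′ UTR of LIN28B, so that each represses the other, and with those of the IGF2BP mRNA-binding proteins and of HMGA2, a chromatin protein of embryonic cells. HMGA1 is the close relative of HMGA2, and DICER1 is the ribonuclease that cuts let-7 precursors into the mature form. In neuroblastoma, LIN28B is known as an oncogene that raises MYCN by way of let-7. Where an mRNA is cleaved and polyadenylated decides which let-7 sites its 3′ UTR carries, and cleavage inside an intron gives a truncated transcript without them.

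The mature let-7 sequences are shown because all matches below were searched with the seed they share. In the RefSeq table (GRCh38.p14), 11 mature microRNAs carried this seed at bases 2 to 8, given in capitals: let-7a to let-7g and let-7i, miR-98-5p, miR-4458 and miR-4500. They differ after the seed, as these 4 show.
hsa-let-7a-5p: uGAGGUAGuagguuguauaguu
hsa-let-7d-5p: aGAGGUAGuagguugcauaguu
hsa-let-7i-5p: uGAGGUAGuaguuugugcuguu
hsa-miR-98-5p: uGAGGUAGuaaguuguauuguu

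A match was the 7 letters CTACCTC, the reverse complement of the seed, on the gene's own strand of the main transcript (MANE Select for all 7 genes). At least 1 such match lay in the 3′ UTR of 6 of the 7 genes, against 9.78% of 18996 protein-coding 3′ UTRs. LIN28B, IGF2BP1 and HMGA2 each held 4, a number reached by 0.0632% of 3′ UTRs. IGF2BP2, IGF2BP3 and HMGA1 each held 1, and the 3′ UTR of DICER1, although 4270 bp long, held 0. These genes are familiar let-7 targets, so the matches describe the sequence and are not a result of the sequencing.

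The matches of LIN28B and IGF2BP1 are printed because poly(A) sites fall between them. Each is the match in capitals with the bases around it on GRCh38, forward strand, in order from the stop codon. The first of LIN28B ends 50 bp after the stop codon and the others 2477, 2659 and 4098 bp after it.
LIN28B chr6:105078813-105078834: cccggttgcaaagtCTACCTCa
LIN28B chr6:105081240-105081261: actgatgatagtaaCTACCTCt
LIN28B chr6:105081422-105081443: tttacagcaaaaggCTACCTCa
LIN28B chr6:105082861-105082882: aatgatggtgttgaCTACCTCt
Those of IGF2BP1 end 1638, 4275, 4929 and 5574 bp after the stop codon.
IGF2BP1 chr17:49051062-49051083: gtgtgcgaagtaaaCTACCTCa
IGF2BP1 chr17:49053699-49053720: agcagtgctagtaaCTACCTCa
IGF2BP1 chr17:49054353-49054374: tataaatggattaaCTACCTCa
IGF2BP1 chr17:49054998-49055019: cacttttgttttatCTACCTCt
The first match of HMGA2 ends 27 bp after its stop codon.
HMGA2 chr12:65963299-65963320: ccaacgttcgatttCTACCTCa

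DICER1 carried its matches in the coding sequence instead. There were 4 there, in exon 16, in exon 21 as a pair, and in exon 24 of 27. Of all protein-coding genes, 13.3% had at least 1 coding match and 0.32% at least 3. The only other member with a coding match was LIN28B, with 1 in exon 4, its last.

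Strength is given below as the pileup, the number of reads covering the peak summit once each read is extended to 100 bp. It was recovered from the deposited fold enrichment and p-value and was a whole number for 100% of peaks. The interval after it is the exact 95% Poisson interval and covers counting error only, since the reads carry no molecular identifiers. No pileup in the list exceeded 200, the most that 1 read per position and strand could give over 100 bp, so pileups of strong sites may be compressed and are not expression levels. The −log10 q is the peak caller's own, and the fold is the pileup over the local background, each plus 1.

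A peak's 3′ end on the gene's strand was taken as the candidate cleavage site. A polyadenylation signal (PAS) means any of the study's 12 hexamers, led by AATAAA and ATTAAA, in the 100 bp before it. A-rich means 6 A in a row or 7 A of 10 in the 50 bp after it, where an oligo(dT) primer can also anneal inside a transcript. Peaks carry no strand, so the gene's strand was used throughout. In wide peaks, 14 of which exceeded 200 bp, a PAS inside the peak can lie outside the 100 bp searched.

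All 7 genes had at least 1 retained peak in their window, as did 78.6% of 18274 protein-coding genes with an intron. Of the 7, 5 had a retained peak at an annotated end, against 66.8% of the 18274. These were LIN28B, IGF2BP1, IGF2BP3, HMGA1 and DICER1. All 5 also had at least 2 sites between the stop codon and 4 kb after the gene, called tandem sites here, as did 71.7% of genes with an end peak. IGF2BP2 and HMGA2 had no tandem site and no end peak, and each was represented by a single weak intronic peak.

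**Figure D1:**
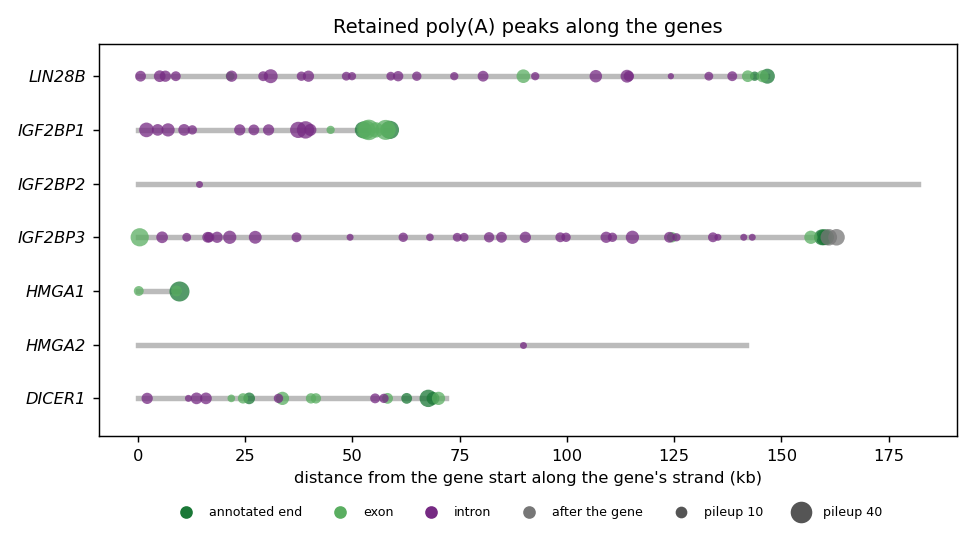
Each row is one gene drawn from its start along its own strand (kb), and each circle is a retained peak, with area proportional to pileup and colour for the region class. LIN28B, IGF2BP1 and IGF2BP3 carry peaks along their introns, with the largest circles at the 3′ end and, in IGF2BP3, also at the gene start, whereas IGF2BP2 and HMGA2 carry 1 peak each.

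Together the 5 genes held 20 tandem sites, with a median pileup of 26. The median over all deposited peaks, which are of every kind and not tandem sites alone, was 9. A PAS preceded 14 of the 20 (70.0%, 95% Wilson interval 48.1 to 85.5), and 76% of the tandem sites of all protein-coding genes. The same search on the opposite strand of the same peaks found one in 9. A-rich sequence followed 10 of the 20 (50%, 29.9 to 70.1), against 26.8% of all tandem sites. A PAS with no A-rich sequence was found at 6 (30%, 14.5 to 51.9), against 58.2% of all tandem sites. At least 1 such site was present in 4 of the 5 genes, LIN28B, IGF2BP1, IGF2BP3 and DICER1, and in 89.5% of genes with an end peak. That of IGF2BP3 lay 748 bp after the annotated end and inside another gene, with CATAAA 94 bp before its end, so its assignment to IGF2BP3 is uncertain. In HMGA1 the end peak was broad and was scored at its far edge, as described below. Of the 20, 14 lay outside every other annotated gene, while 1 site of HMGA1 and all 5 of IGF2BP3 overlapped one.

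**Figure D2:**
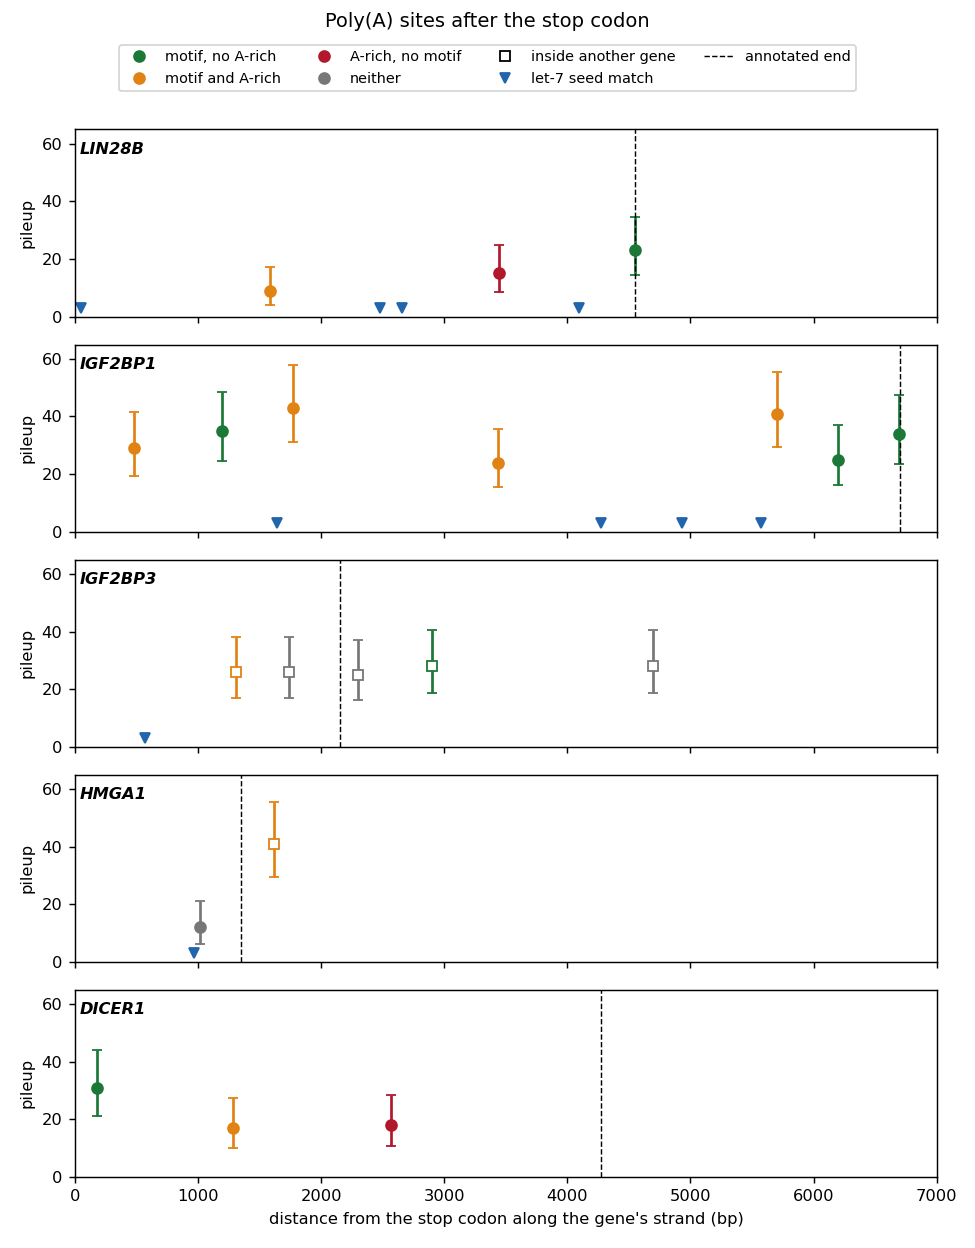
Pileup of each peak after the stop codon (bp along the gene's strand) in the 5 genes that had any, with exact 95% Poisson intervals as bars. Colour gives the sequence context, open squares lie inside another gene, triangles mark let-7 matches and the dashed line the annotated end. The 7 sites of IGF2BP1 spread over its whole 3′ UTR, from 477 to 6695 bp after the stop codon.

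LIN28B (ENSG00000187772.8, chr6:104936616-105083332, forward strand) spans 146.717 kb with 3 introns and a 3′ UTR of 4549 bp. It had 3 tandem sites, 1585, 3441 and 4549 bp after the stop codon. The last coincides with the annotated end of the main transcript to the base and was the strongest, with a pileup of 23 (14.6 to 34.5), a fold of 9.92 and a −log10 q of 17.3. The middle site had a pileup of 15 (8.4 to 24.7), no PAS and A-rich sequence after it, and the first had 9 (4.12 to 17.1), with ATTAAA 7 bp before its end and A-rich sequence as well. The first also counts as an end peak, 111 bp before the end of another annotated transcript. The pileups increase along the 3′ UTR, although the intervals of all 3 overlap. The 30 bases before the last site show its AATAAA 26 bp from cleavage, and the sequence after it is not A-rich.
LIN28B chr6:105083303-105083332: taaaAATAAAacatataacgttggcattta

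Set against the let-7 matches printed above, a LIN28B transcript ending at the first site would carry 1 match, one ending at the middle site 3, and one ending at the last site all 4. Of the 3, only the last, at the end of the main transcript, had a PAS and no A-rich sequence.

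IGF2BP1 (ENSG00000159217.10, chr17:48997385-49056145, forward strand) is an mRNA-binding protein of fetal tissues that protects its target transcripts from decay. Its 3′ UTR, 6701 bp, is the longest of the 7. It held 7 tandem sites, more than 88.7% of the 610 genes with a 3′ UTR of like length and an end peak, for which the median was 4. Of the other members with an end peak, LIN28B and DICER1, with 3 each, and HMGA1, with 2, equalled the medians for their 3′ UTR length, and IGF2BP3, with 5, stood against a median of 3. The pileups were 29, 35, 43, 24, 41, 25 and 34 in order from the stop codon, and the sites lay 477, 1197, 1773, 3435, 5706, 6198 and 6695 bp after it.

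No trend along the 3′ UTR was visible in these values. The strongest, 43 (31.1 to 57.9), had an interval overlapping that of the weakest, 24 (15.4 to 35.7). All 7 had a PAS, and 3 of them had no A-rich sequence: 1197, with AGTAAA 30 bp before its end, 6198, with AATAAA 15 bp before it, and 6695, with AATAAA 23 bp before it. The last lies 6 bp before the annotated end. The 30 bases before these 3 sites are shown with the PAS in capitals.
IGF2BP1 chr17:49050612-49050641: AGTAAAttggagagtacttgcttctgtttg
IGF2BP1 chr17:49055613-49055642: tgtgttaccataatgAATAAAcgtcctcta
IGF2BP1 chr17:49056110-49056139: atttcaaAATAAAaggaaacttatattgaa

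The site at 5706 bp also had AATAAA, 17 bp before its end. Yet its end lies within a run of A, and a further run of 11 A begins 8 bases after its end. Its 30 downstream bases show the run of 11 in capitals, and for such a site cleavage and internal priming cannot be told apart.
IGF2BP1 chr17:49055151-49055180: aaaaaccAAAAAAAAAAAtttttttttaaa

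The order of sites and matches in IGF2BP1 differs from that in LIN28B. The sites at 477 and 1197 bp precede every let-7 match, those at 1773 and 3435 bp follow 1 match, and the last 3 follow all 4. Sites with similar pileups, 35 at 1197 bp and 34 at 6695 bp, thus correspond to 3′ UTRs with 0 and with 4 matches.

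IGF2BP3 (ENSG00000136231.14, chr7:23310209-23470491, reverse strand), another oncofetal mRNA-binding protein of the family, had 5 tandem sites, 1309, 1736, 2298, 2901 and 4698 bp after the stop codon. The third peak spans its annotated end, and the last 2 lie wholly after it. Their pileups were nearly level, from 25 to 28, on a local background of 3.95 to 4.07 reads per 100 bp. The nearest peak to the annotated end, chr7:23310064-23310323, ended 145 bp after it and had no PAS on the IGF2BP3 strand, although the annotated end itself has AATAAA 27 bp before it. All 5 lie inside MALSU1, a mitochondrial ribosome assembly gene on the forward strand (chr7:23298739-23311729) whose 3′ end overlaps that of IGF2BP3. Only the peak 2901 bp after the stop codon had a PAS and no A-rich sequence on the IGF2BP3 strand, with CATAAA 94 bp before its end. On the MALSU1 strand, this same peak had AATAAA 29 bp before its end and no A-rich sequence. Since the list has no strand, the reads of both genes cannot be told apart here, and the number of IGF2BP3 sites is uncertain. The single let-7 match of IGF2BP3, 566 bp after the stop codon, precedes all 5. The strongest IGF2BP3 peak was exonic and lay 0.446 kb from the gene start, chr7:23470045-23470185. It had a pileup of 34 (23.5 to 47.5), a fold of 11.5 and a −log10 q of 26.1, and overlapped no other gene. On the IGF2BP3 strand it had AATGAA 67 bp before its end and no A-rich sequence. On the opposite strand it had ATTAAA 29 bp before its end and A-rich sequence.

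HMGA1 (ENSG00000137309.21, chr6:34236873-34246231, forward strand) encodes a chromatin protein that bends AT-rich DNA, and at 9.359 kb it is the shortest of the 7. It had 2 tandem sites. The weaker, 1016 bp after the stop codon, had a pileup of 12 (6.20 to 21), no PAS and no A-rich sequence. The stronger, chr6:34246106-34246502, is a broad peak of 397 bp that spans the annotated end, with a pileup of 41 (29.4 to 55.6), a fold of 14.1 and a −log10 q of 35.2, the highest among the 20 tandem sites. The intervals of the pair do not overlap. Scored at its far edge, 271 bp after the annotated end, the broad peak had AATATA 83 bp before that edge and A-rich sequence after it. AATAAA stands 25 bp before the annotated end, inside the peak but outside the 100 bp searched. The broad peak also reaches SMIM29, a gene on the reverse strand (chr6:34246381-34249108) whose 3′ end faces that of HMGA1, and its reads cannot be divided between them. The single let-7 match of HMGA1 precedes both sites.

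DICER1 (ENSG00000100697.17, chr14:95086228-95158010, reverse strand) had 3 tandem sites, 176, 1280 and 2563 bp after the stop codon, and no peak at the distal end of its 4270 bp 3′ UTR. The strongest was the first, with a pileup of 31 (21.1 to 44), a fold of 10.7 and a −log10 q of 23. It lies 1 bp before the end of a shorter annotated transcript. Its AATAAA stands 26 bp before cleavage, and it was the only one of the 3 without A-rich sequence after it. The others had pileups of 17 (9.90 to 27.2) and 18 (10.7 to 28.4), whose intervals overlap that of the first. The second also counts as an end peak, 29 bp after the end of another annotated transcript, and had GATAAA 32 bp before its end. The third had no PAS. The 30 bases before the first site are printed with the PAS in capitals, and the 30 after the second with its run of A in capitals, both on the reverse strand.
DICER1 chr14:95090322-95090351: acagAATAAAacatttaacatatgtataaa
DICER1 chr14:95089188-95089217: aaggAAAAAAAAAAAAActtctttaggcat

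DICER1 also had peaks at 2 annotated ends that lie within introns of its main transcript. The peak chr14:95095350-95095450 in intron 23 had a pileup of 12 (6.20 to 21) with ATTAAA 21 bp before its end and no A-rich sequence, 4 bp before the annotated end of a shorter transcript. The peak chr14:95132056-95132215 in intron 3 had a pileup of 14 (7.65 to 23.5) and ended 3 bp before such an end, with AATAAA 87 bp before it and A-rich sequence after it. A transcript ending in intron 23 would hold the coding let-7 matches of exons 16 and 21 and lack that of exon 24. One ending in intron 3 would hold none of the 4.

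Intronic peaks made up 70 of the 106 retained peaks (66.0%, 56.6 to 74.4). They were present in 6 of the 7 genes, all but HMGA1, against 59.7% of protein-coding genes, and in 4 of the 5 with an end peak, against 76.8% of such genes. IGF2BP3 had 27, LIN28B 23, IGF2BP1 11 and DICER1 7, and IGF2BP2 and HMGA2 had 1 each. Their pileups were lower than those of tandem sites, with a median of 11. A PAS preceded 33 of the 70 (47.1%, 35.9 to 58.7), against 54.2% of all intronic peaks and 25 of the 70 on the opposite strand of the same peaks. A-rich sequence followed 58 (82.9%, 72.4 to 89.9), against 76.2% of all intronic peaks and 12 of the 70 on the opposite strand. Only 8 (11.4%, 5.91 to 21) had a PAS and no A-rich sequence, and the share over all intronic peaks was 16.8%.

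**Figure D3:**
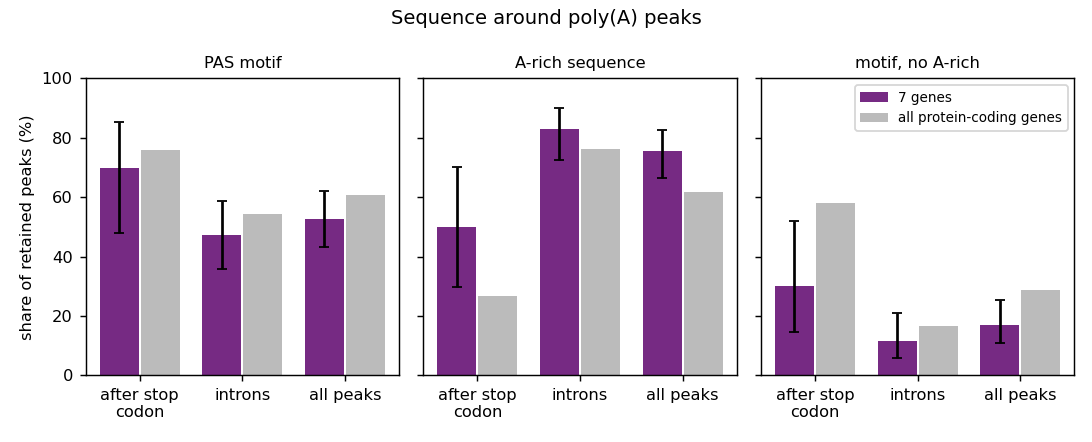
Share of retained peaks (%) with a PAS, with A-rich sequence, and with a PAS but no A-rich sequence, for sites after the stop codon, introns and all peaks. Bars in purple are the 7 genes with 95% Wilson intervals and bars in grey are all protein-coding genes, and A-rich sequence is the most frequent at intronic peaks in both.

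Over all 106 peaks, a PAS was found at 52.8% (43.4 to 62.1) and A-rich sequence at 75.5% (66.5 to 82.7), against 60.9% and 61.7% of the window peaks of all protein-coding genes. A PAS with no A-rich sequence was found at 17.0% (11 to 25.3), against 28.8%. Of the 80 A-rich peaks, 58 were intronic. The peaks of one gene share a transcript and are not independent, so these differences were not tested.

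Long genes have more room for intronic peaks, so each count was set beside genes of like length that also had an end peak (20 length bins, 610 genes in each bin used here). IGF2BP3 had 27 against a median of 15 and exceeded 95.1% of its bin. IGF2BP1, with 58.761 kb, had 11 against 6 and exceeded 89.3%. LIN28B had 23 against 15 and exceeded 84.4%. DICER1, at 71.783 kb, equalled its bin median of 7, and the median for genes as short as HMGA1 was 0. Counting only intronic peaks with a PAS, IGF2BP3 had 12 against 8, LIN28B 10 against 8, IGF2BP1 4 against 3 and DICER1 6 against 4. With a PAS and no A-rich sequence the numbers were small, 4 against 2 in IGF2BP3, 3 against 2 in LIN28B, 1 against 1 in IGF2BP1 and 0 against 1 in DICER1. Per 100 kb of intron in the main transcript, IGF2BP1 had 22 peaks, IGF2BP3 17.3 and DICER1 11.5. The value for LIN28B, 19, is too high to be ranked with these. It counts 4 peaks before the start of the main transcript, outside the intron length used. IGF2BP2 and HMGA2 had no end peak and were compared with all protein-coding genes of like length, whose medians were 14 and 11. Only 15.9% and 14.3% of those genes had fewer than the single peak of each.

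**Figure D4:**
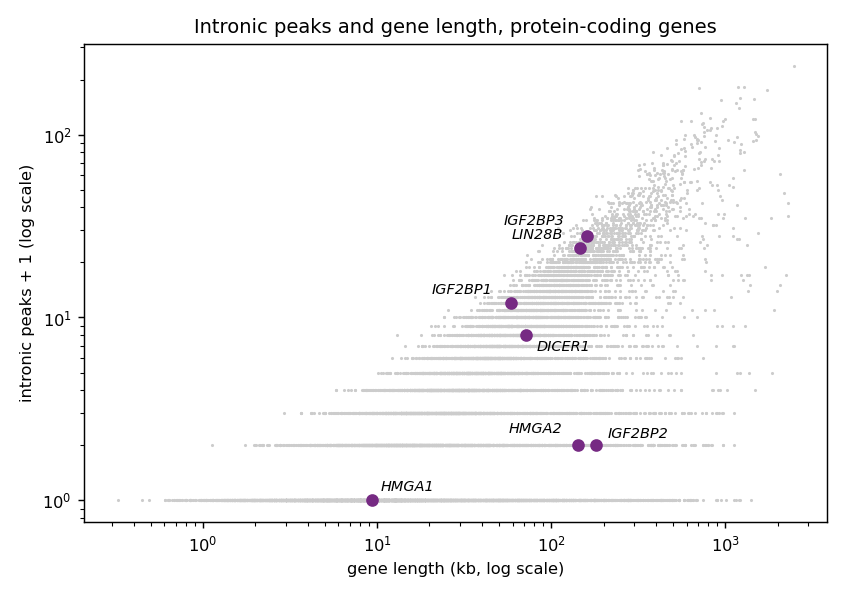
Number of intronic peaks plus 1 against gene length (kb), both on log scales, for protein-coding genes with an intron (grey) and the 7 genes (purple). LIN28B, IGF2BP1 and IGF2BP3 lie high for their length, and IGF2BP2 and HMGA2, both over 100 kb, lie near the floor with 1 peak each.

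In LIN28B, 12 of the 23 intronic peaks lay in intron 2, 7 in intron 3 and 4 before the start of the main transcript but inside the gene. The short first intron, 0.838 kb, held 0. Pileups ranged from 4 to 20. The strongest by −log10 q, chr6:105050511-105050621 in intron 3, had a pileup of 17 (9.90 to 27.2), a fold of 12.3 and a −log10 q of 18.6. It had no PAS and ends within a run of A, of which 13 follow it. The sequence after this peak is printed as an example of A-rich sequence, which followed 58 of the 70 intronic peaks. The runs of A after many of the others were shorter.
LIN28B chr6:105050622-105050651: AAAAAAAAAAAAAgaatgttgaacattggc

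Another 3 LIN28B peaks had AATAAA and no A-rich sequence. They were chr6:104945374-104945473, chr6:105001495-105001625 and chr6:105075042-105075145, with pileups of 10, 9 and 10. The last lies in intron 3, 138.529 kb from the gene start, and its AATAAA stands 23 bp before the peak's end. It had a fold of 6.88 and a −log10 q of 7.56. Its upstream 30 bases carry the PAS in capitals, and a transcript ending there would lack the coding match and all 4 matches of the 3′ UTR.
LIN28B chr6:105075116-105075145: aatatatAATAAAgtatgagtatagttttc

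IGF2BP1 had 7 intronic peaks in intron 2, 1 in intron 4 and 3 in intron 5. The strongest intronic peak of all 7 genes was here, chr17:49036352-49036472 in intron 5, with a pileup of 31 (21.1 to 44), a fold of 13.7 and a −log10 q of 27.9. It begins at the first base of RNU6-826P, a U6 snRNA pseudogene on the same strand, and has both AATAAA and A-rich sequence. U6 has many near-identical copies and reads mapping to several places were kept, so the source of these reads is uncertain. Only chr17:49037492-49037596, in the same intron, combined AATAAA (30 bp before its end) with no A-rich sequence, and its pileup was 15 (8.4 to 24.7). Its 30 upstream bases open with the PAS.
IGF2BP1 chr17:49037567-49037596: AATAAAgatcttttatttcaaaaacgaaaa

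IGF2BP3 had 9 intronic peaks in intron 2 and 9 in intron 3, 4 in intron 10, 3 in intron 5 and 1 each in introns 7 and 8. The strongest by −log10 q, chr7:23443117-23443229 in intron 2, had a pileup of 17 (9.90 to 27.2), against a highest intronic pileup of 18, and a fold of 12, with no PAS and a run of 14 A directly after it. A PAS with no A-rich sequence was found at 4 peaks, 2 in intron 3 and 2 in intron 5. The strongest of these, chr7:23361342-23361446, had a pileup of 13 (6.92 to 22.2) with AGTAAA 28 bp before its end. Another, with a pileup of 9, had AATAAA 18 bp before its end, and the remaining pair, with pileups of 9 and 6, had less common hexamers.
IGF2BP3 chr7:23361342-23361371, reverse strand: ctAGTAAAaatctacattggttaaagttgt

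In DICER1, 4 of the 7 intronic peaks lay in the first intron, which at 23.726 kb makes up 38.9% of its intron sequence. The strongest by −log10 q, chr14:95155823-95155928, had a pileup of 13 (6.92 to 22.2), CATAAA 18 bp before its end and A-rich sequence after it, while 2 others in that intron reached a pileup of 14. All 7 were A-rich. Its 6 exonic peaks before the stop codon were A-rich too, with pileups of 6 to 18.

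IGF2BP2 (ENSG00000073792.16, chr3:185643130-185825042, reverse strand) and HMGA2 (ENSG00000149948.14, chr12:65824460-65966291, forward strand) are long genes, 181.913 and 141.832 kb. The peak of IGF2BP2, chr3:185810675-185810774 in intron 2, and that of HMGA2, chr12:65914178-65914277 in intron 3, each had a pileup of 5 (1.62 to 11.7), a fold of 5.04 and a −log10 q of 4.81. Both stood on the lowest local background in the list, 0.190 reads per 100 bp. The peak of HMGA2 had AAGAAA 7 bp before its end and A-rich sequence after it, and that of IGF2BP2 had neither. AATAAA stands 23 and 22 bp before their annotated ends, as it does 21 to 29 bp before those of the other members, so the signal sequence was present at ends where no peak was called. With no peak there, the list gives no number of reads, and the level of these transcripts was not detectable from it.

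The local background at intronic peaks, the caller's estimate of reads per 100 bp around a peak, was also recovered. With LIN28B cut into 3 equal parts from its start, the 10 intronic peaks of the first part had a median of 0.95, the 7 of the middle part 0.54 and the 6 of the last part 0.46. Spearman's rho with distance from the gene start was −0.85 over its 23 peaks, a description only, since neighbouring peaks can share the 10 kb window of the estimate. Of the 10 in the first part, 4 lay before the start of the main transcript, with values of 1.04 to 1.35. Among these 4, 1 overlaps LIN28B-AS1 on the opposite strand and 1 another noncoding RNA gene, whose reads cannot be told apart here. In IGF2BP1 rho was −0.50 over 11 peaks and in IGF2BP3 −0.51 over 27. A negative rho was found in 56.5% of 2534 protein-coding genes with at least 10 intronic peaks and in 56.8% of those over 100 kb, the median was −0.08, and 1.26% of these genes had a lower value than LIN28B. The share for IGF2BP1 was 15.4% and that for IGF2BP3 14.9%.

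**Figure D5:**
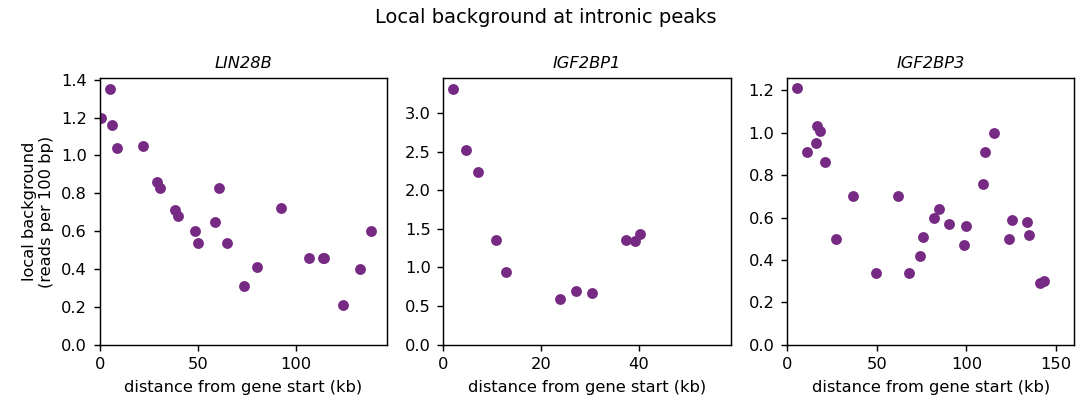
Local background (reads per 100 bp) at each intronic peak against distance from the gene start (kb) in the 3 members with at least 10 intronic peaks. In LIN28B the values go from 0.60 to 1.35 in the first part of the gene to 0.21 to 0.60 in the last part.

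The other genes of the pathway were taken from 2 lists. Of 15 let-7 pathway genes, which act in processing, decay and silencing, 14 had a peak at an annotated end (66.8% of all protein-coding genes), with pileups of 12 to 74, and 12 had an intronic peak (59.7% of all). LIN28A, the paralogue of LIN28B, had no end peak and 1 tandem site. The most tandem sites were in AGO1, with 8, and AGO2, with 7, both Argonaute proteins that hold mature microRNAs. Of 12 known let-7 targets, 11 had an end peak and 9 an intronic peak, to be read beside the same 66.8% and 59.7%. The cell cycle gene CCND2 had no peak at all, and FIGN and IGDCC3 had 5 tandem sites each.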

How the data were processed

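Libraries (QuantSeq 3′ REV) were primed with oligo(dT), so that each read starts at the cleavage site. Per the labels and the study's methods, the authors mapped reads with STAR 2.5.1b to GRCh38, merged all 8 libraries and called peaks with MACS2 2.1.1 on reads extended to 100 bp. How duplicate reads were handled is not given in the sources used here. The deposited list holds, per peak, a score, a fold enrichment (a ratio) and the −log10 of the p-value and q-value. It has 0 columns per sample, so no group was compared, and coverage tracks were not used here.

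From these values, pileup and local background were recovered by the MACS2 formulas, with a tolerance of 0.001 in −log10 p. Peaks were annotated with GENCODE release 44 (basic transcripts): annotated end (200 bp before to 600 bp after), then exon, then intron. Python 3.11.15, pandas 2.3.3 and pysam 0.24.0 were used, and the steps were tested on simulated data. Members and lists were chosen with earlier results of these data known. Peaks were named individually when they lay after the stop codon, were the strongest intronic peak of a gene by −log10 q, or were intronic with a PAS and no A-rich sequence. The 2 DICER1 peaks at ends inside introns, the IGF2BP3 peak near its gene start and the sequences printed were picked after their values were seen. Alternatives changed thresholds, motifs, windows and transcript sets.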

Additional observations from a re-analysis of the deposited data

How the results depend on the processing

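Of 36 alternatives, 3 of them chosen after seeing the data, 27 stayed within 1.5 times a count or within the interval of a share. Requiring a −log10 q of at least 10 left 34 of the 106 peaks. The share of peaks with a PAS, 52.8%, was 26.4% with AATAAA and ATTAAA alone and 42.5% in a 50 bp window. The A-rich share, 75.5%, was 58.5% when 8 A of 10 were required and 1.89% for a stretch of 25 A. The 70 intronic peaks became 33 with a PAS and 8 with a PAS and no A-rich sequence. The 20 tandem sites became 6 with a PAS and no A-rich sequence, and 7 with AATAAA or ATTAAA within 50 bp, an alternative added after seeing the data. These alternatives keep fewer peaks by construction. Of the 5 genes with an end peak, 3 had more intronic peaks than the median for their length, 4 with PAS peaks alone or against all genes, and 2 with a PAS and no A-rich sequence. The strongest tandem site of each of the 5 genes was the same by fold and by −log10 q.

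No paired analysis was possible because the list pools all 8 libraries and has no column per replicate, and leaving out single libraries was not run for the same reason. Depth per library is unknown, and a site below the caller's threshold is not listed.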

Other observations

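The let-7 hairpins themselves were looked up after the other values had been seen. Of 11 let-7 hairpins in the RefSeq table, 9 had a peak within 5 kb, as did 55.4% of the 1551 other hairpins of the table. Neighbouring hairpins share peaks, and the difference was not tested. A peak with a pileup of 17, chr9:94176172-94176341, lay between MIRLET7A1 and MIRLET7F1, 136 bp from the former and 6 bp from the latter, and the nearest peak to MIRLET7D, with a pileup of 30, was 467 bp away. All 3 hairpins lie in MIRLET7A1HG. The nearest peak to MIRLET7B had a pileup of 10 and was 57 bp away. MIRLET7A2 and MIRLET7C had no peak nearer than 45264 and 178160 bp. The peaks have no strand, so their assignment to the host transcripts was not tested.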
